A study of Homo sapiens with 6 samples.

Results

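Described here are 10 genes that encode enzymes acting on aldehydes and ketones: the aldo-keto reductases AKR1C1, AKR1C2, AKR1C3, AKR1B1, AKR1B10 and AKR1A1, the aldehyde dehydrogenases ALDH1A3, ALDH3A1 and ALDH3A2, and the carbonyl reductase CBR1. They were taken by symbol from a table of 23024 genes, and all 10 had a row. Their levels were measured by RNA sequencing of total RNA from 5637, an established line of human bladder carcinoma cells. The 3 libraries named NC carry the genotype label WT, and the other 3 carry a knockdown of RAD51C by a short hairpin RNA (sh-RAD51C); the RNA of both groups came from transfected cells. What NC stands for, the hairpin's sequence, its promoter and the time after transfection were not given in the sources used here. No label ties the libraries of a group to separate cultures, so an error or p-value below measures the spread between 3 libraries, which may be technical. The genes were chosen with the comparison of these groups in view, so their values are given as a description, with no p-value for any of them.

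Aldo-keto reductases are soluble enzymes that use NADPH to reduce the carbonyl group of sugars, steroids, prostaglandins and lipid aldehydes to an alcohol. Aldehyde dehydrogenases take aldehydes the other way, to carboxylic acids, and in that way make retinoic acid from retinal and clear aldehydes left by lipid breakdown. CBR1 belongs to a different fold, the short-chain dehydrogenases, and reduces prostaglandins, quinones and anthracycline drugs. Several genes of these families are known targets of NRF2, the transcription factor that answers to electrophiles and oxidants, and high aldehyde dehydrogenase activity is widely used to mark stem-like cells in carcinomas.

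The targeted gene RAD51C, a recombination factor of DNA repair, averaged 13.8 ± 0.804 FPKM over the NC libraries and 3.18 ± 0.288 FPKM over the sh-RAD51C libraries (SD, n = 3 each), 23% of the NC mean (limma adjusted p = 7.16e-09; exact two-sided permutation p = 0.1, the smallest that 3 libraries against 3 allow). FPKM scales a gene's reads by its length and by the library's total, so a comparison between genes rests on the lengths used. The whole reads behind the values could be inferred for 23023 of the 23024 genes, and libraries held 36068282 to 38079825 of them. Over the 11152 genes averaging 1 FPKM or more, which were tested in limma on log2(FPKM + 1), 49.4% were called at an adjusted p under 0.05 (26.2% lower and 23.2% higher in sh-RAD51C), and the median difference was -0.01. Epithelial keratins were abundant, KRT19 for example at 1074 FPKM in NC and 682 FPKM in sh-RAD51C, while the uroplakins UPK1A, UPK1B, UPK2 and UPK3A, which mark mature urothelium, stayed at or below 0.228 FPKM in every library. Summed levels were 3075 to 3163 FPKM in NC and 2767 to 2863 FPKM in sh-RAD51C for 16 urothelial and epithelial markers (12 tested), 70.5 to 70.9 and 56.3 to 57.9 FPKM for fibroblast markers, 96 to 104 and 89.9 to 94.9 FPKM for blood cell markers, and 0.185 to 0.333 and 0.36 to 0.504 FPKM for endothelial markers. Of 10 fibroblast markers FBLN1 (55.9 and 44.4 FPKM), COL1A1 (9.94 and 6.83 FPKM) and THY1 (4.56 and 5.52 FPKM) were tested, and of 10 blood cell markers LAPTM5 (97.7 and 89.5 FPKM), CD14 (1.57 and 0.573 FPKM) and CD68 (1.72 and 2.24 FPKM), all called. CD14 passed the level filter only through its NC libraries. COL1A2, DCN and PTPRC stayed at or below 0.0152 FPKM in every library, and the part of these markers in the results below was not tested.

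The 10 genes spanned a wide range of levels. ALDH1A3 was by far the highest, at 812 FPKM in NC, followed by AKR1B1 and CBR1, whose NC libraries overlapped, and then by AKR1A1, ALDH3A2 and AKR1C3, each apart from the next. AKR1C2, AKR1C1, AKR1B10 and ALDH3A1 followed in that order in NC, again each apart from the next. In sh-RAD51C the first 6 kept their order and were all apart, and AKR1B1 no longer overlapped CBR1. The last 4 did not separate there: AKR1C1, AKR1C2, AKR1B10 and ALDH3A1 each overlapped the next in the order.

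**Figure D1:**
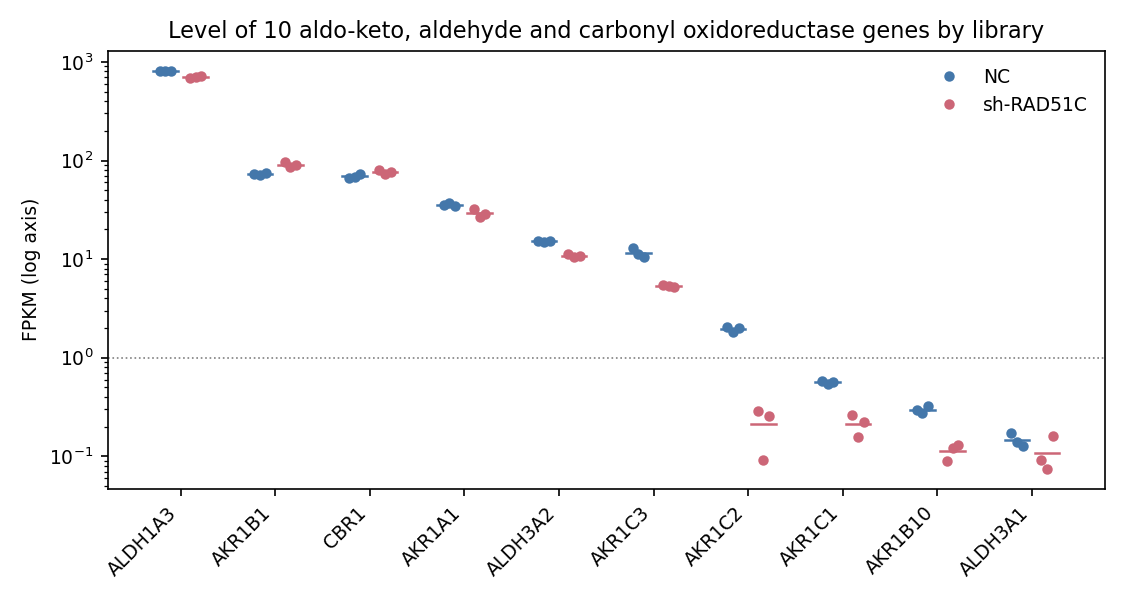
FPKM of the 10 genes (log axis) in each of the 3 NC libraries (blue) and 3 sh-RAD51C libraries (red), ordered by the NC mean; short bars are group means and the dotted line is the level filter of 1 FPKM. AKR1C2 shows the widest gap between groups, from a mean of 1.97 to 0.211 FPKM, and ALDH3A1 is the gene whose groups overlap.

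Of the 10 genes, 7 had all sh-RAD51C libraries below all NC libraries, 2 had them all above, and ALDH3A1 overlapped; among all genes listed the groups did not overlap for 37.7%, with 21.6% lower and 16.1% higher. The level filter kept 7 of the 10, AKR1C2 only through its NC libraries, and all 7 were called, 5 lower and 2 higher, beside 49.4% of all genes tested, 26.2% lower and 23.2% higher. Nothing is read from these counts, since the genes were chosen on this comparison. AKR1C1, AKR1B10 and ALDH3A1 were below the filter. The median difference of the 7 on the log2(FPKM + 1) scale was -0.29, beside -0.01 for all genes tested.

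On the log2(FPKM + 1) scale AKR1C2 and AKR1C3 had the largest differences of the 7 genes kept. With AKR1C1 they lie side by side on chromosome 10 of GRCh38 (hg38; positions from GENCODE 29). AKR1C1 (ENSG00000187134.13) occupies chr10:4963253-4983283 on the plus strand, AKR1C2 (ENSG00000151632.17) chr10:4987400-5018031 on the minus strand, and AKR1C3 (ENSG00000196139.13) chr10:5035354-5107686 on the plus strand. AKR1C1 and AKR1C2 are 4117 bases apart and AKR1C2 and AKR1C3 17323 bases. AKR1C1 inactivates progesterone, AKR1C2 inactivates the androgen dihydrotestosterone, and AKR1C3 makes testosterone from a weaker precursor and also forms prostaglandin F.

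How alike these genes are is visible in the DNA before their starts. In the RefSeq windows of 250 bases before the start (GRCh38.p14), AKR1C1 and AKR1C2 had 245 identical bases, 1 mismatch and 8 gap positions, an identity of 96.5%. AKR1C3 has 2 RefSeq starts, and their windows were 69.2% to 71.4% identical to that of AKR1C1. The stretches below are shown because the upstream DNA of AKR1C1 at chr10:4963169-4963252 (plus strand) and of AKR1C2 at chr10:5004024-5004107 (minus strand), both outside annotated exons, is the same at 84 of 84 bases:
AKR1C1 upstream: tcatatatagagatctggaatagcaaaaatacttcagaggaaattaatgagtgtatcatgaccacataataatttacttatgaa
AKR1C2 upstream: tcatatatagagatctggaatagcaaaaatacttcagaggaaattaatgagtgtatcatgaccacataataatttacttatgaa

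Nearer the start, all 4 AKR1C windows held a similar run of 25 bases. This run was the same in AKR1C1 and AKR1C2 and differed at several positions in AKR1C3. Each run held a CCAAT box (searched as CCAAT on both strands), the short element bound by the factor NF-Y. It reads ATTGG in the direction of the gene and is in capitals below, for AKR1C1 at chr10:4963328-4963352 (plus), AKR1C2 at chr10:5003924-5003948 (minus), and AKR1C3 at chr10:5048698-5048722 and chr10:5094318-5094342 (plus). It began 77 bases before the RefSeq start in AKR1C1, 81 in AKR1C2, and 73 and 86 at the starts of AKR1C3:
AKR1C1 site 1: ctcacatgccATTGGttaaccagca
AKR1C2 site 1: ctcacatgccATTGGttaaccagca
AKR1C3 site 1: tttacatgctATTGGttaaccatta
AKR1C3 site 2: cctacatgccATTGGttaaccatca
By GENCODE 29, the sites of AKR1C1 and AKR1C2 and site 2 of AKR1C3 fall in the untranslated part of an exon, and site 1 of AKR1C3 in no exon. The motif was picked after the sequences had been seen. It occurs in 32% of all 35116 RefSeq windows of this length and in 7 of the 11 windows of the 10 genes, so its presence is a description only.

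AKR1C3 carried most of the AKR1C signal. Its level was 12.9, 11.4 and 10.6 FPKM in NC 1, 2 and 3, and 5.41, 5.38 and 5.24 FPKM in sh-RAD51C 1, 2 and 3. The sh-RAD51C libraries lay close together at less than the lowest NC library's level, and the wider spread was in NC. The means were 11.6 ± 1.16 and 5.35 ± 0.0898 FPKM (SD, n = 3), 2.17-fold lower in sh-RAD51C, and the log2(FPKM + 1) difference was -0.99 ± 0.065 (SE; 95% interval -1.13 to -0.85). From 767 to 895 reads per NC library and 384 to 397 per sh-RAD51C library lay behind these values.

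AKR1C2 differed the most in relative level among the 10 genes. It was at 2.06, 1.84 and 2.01 FPKM in NC 1, 2 and 3, and at 0.287, 0.0915 and 0.255 FPKM in sh-RAD51C 1, 2 and 3. The NC libraries agree closely, and among the sh-RAD51C libraries the second is the lowest, with 14 reads beside 45 and 40. The means of 1.97 ± 0.114 and 0.211 ± 0.105 FPKM (SD, n = 3) differ 9.33-fold, or to 10.7% of NC. Because the pseudocount of 1 exceeds the sh-RAD51C level, the log2(FPKM + 1) difference of -1.30 ± 0.081 (SE; 95% interval -1.48 to -1.12) understates this; it was -2.80 and -3.31 with pseudocounts of 0.1 and 0.01, and -3.35 on the inferred reads.

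In FPKM, which here rests on an inferred length of 6543 bases, AKR1C1 was low in both groups and below the level filter. It was at 0.576, 0.545 and 0.574 FPKM in NC 1, 2 and 3 and 0.261, 0.157 and 0.225 FPKM in sh-RAD51C 1, 2 and 3. The groups did not overlap, and the second sh-RAD51C library was again the lowest. The sh-RAD51C mean of 0.214 ± 0.053 FPKM was 37.9% of the NC mean of 0.565 ± 0.0171 FPKM (SD, n = 3). Summed over libraries, 411 reads in NC stood against 159 in sh-RAD51C, a ratio of 0.38 (95% exact interval 0.314 to 0.457, covering counting error only).

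Reads of AKR1C1 and AKR1C2 may be hard to separate. Of the distinct 100-base windows in the GENCODE 29 transcripts of AKR1C2, 22.1% also occur in AKR1C1 transcripts and 1.09% in those of AKR1C3, and 16.5% of the AKR1C1 windows occur in AKR1C2. With 150-base windows the share of AKR1C2 found in any other gene fell from 23.1% to 13.7%, that of AKR1C1 from 16.7% to 10%, and that of AKR1C3 from 1.75% to 0.444%. These windows pool all annotated transcripts of a gene, whether expressed here or not, and count exact matches only. The shares are therefore not shares of reads, which could be higher. The read length and the treatment of such reads were not given in the sources used here, so the individual values of AKR1C1 and AKR1C2 are uncertain, and the AKR1C3 value much less so. If each shared read was counted once, the sum of their reads does not depend on the split between them. Shared reads that were dropped, or counted in both genes, would change it. AKR1C1 and AKR1C2 together had 442, 419 and 452 reads in NC 1, 2 and 3 and 110, 52 and 96 in sh-RAD51C 1, 2 and 3. Relative to the libraries' totals, these 1313 and 258 reads had a ratio of 0.193 (95% exact interval 0.168 to 0.221, covering counting error only). Their summed level, which does depend on the split because the genes differ in length, was 2.53 ± 0.13 FPKM in NC and 0.425 ± 0.157 FPKM in sh-RAD51C (SD, n = 3), 5.96-fold lower.

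The composition of the group shifted with its level, with the same uncertainty for AKR1C1 and AKR1C2. The 3 AKR1C genes summed to 15.5, 13.8 and 13.2 FPKM in NC 1, 2 and 3 and 5.96, 5.63 and 5.72 FPKM in sh-RAD51C 1, 2 and 3, a 2.45-fold lower mean. AKR1C3 held 80.4% to 83% of that sum in the NC libraries and 90.8% to 95.6% in the sh-RAD51C libraries. The share of AKR1C2 was 13.3% to 15.2% in NC and 1.62% to 4.81% in sh-RAD51C. That of AKR1C1, at 3.72% to 4.35% and 2.78% to 4.38%, overlapped. These shares rest on the lengths behind the FPKM values, inferred as 6543 bases for AKR1C1, 4123 for AKR1C2 and 1927 for AKR1C3. Reads, unscaled by length, were 136, 306 and 895 in NC 1 and 65, 45 and 397 in sh-RAD51C 1, in the same order.

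**Figure D2:**
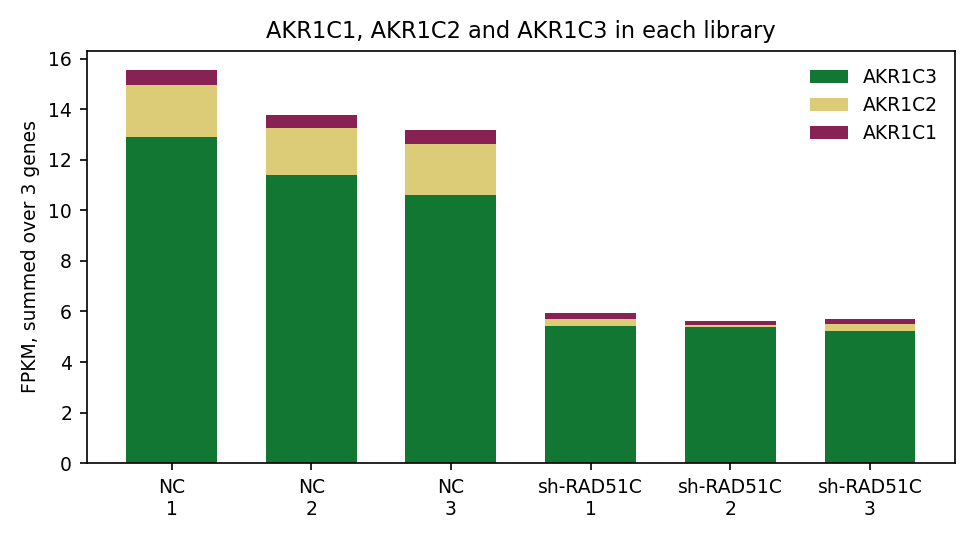
Summed FPKM of AKR1C3 (green), AKR1C2 (yellow) and AKR1C1 (purple) in each library; each bar is 1 library and starts at 0. The NC bars reach 13.2 to 15.5 FPKM and the sh-RAD51C bars 5.63 to 5.96 FPKM, with AKR1C2 a thin band in the latter.

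The AKR1B genes went in opposite directions. AKR1B1 (ENSG00000085662.13, chr7:134442350-134459284, minus strand) is aldose reductase, which turns glucose into sorbitol in the first step of the polyol pathway. It was at 73.6, 70.9 and 74.1 FPKM in NC 1, 2 and 3, and at 96.4, 85.7 and 89.5 FPKM in sh-RAD51C 1, 2 and 3. Every sh-RAD51C library lay above every NC library, the first the highest. The means were 72.8 ± 1.73 and 90.6 ± 5.45 FPKM (SD, n = 3), 1.24-fold higher in sh-RAD51C, with a log2(FPKM + 1) difference of 0.31 ± 0.045 (SE; 95% interval 0.21 to 0.41). No 100-base window of its transcripts occurred in another gene.

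AKR1B10 (ENSG00000198074.9, chr7:134527592-134541408, plus strand), 68308 bases from AKR1B1, reduces retinal and lipid aldehydes efficiently and is known for its high level in several carcinomas. It was at 0.294, 0.272 and 0.323 FPKM in NC 1, 2 and 3 and 0.0895, 0.122 and 0.13 FPKM in sh-RAD51C 1, 2 and 3. The groups did not overlap, but these levels rest on 27 to 32 reads per NC library and 9 to 13 per sh-RAD51C library. The summed reads, 87 and 34, had a ratio of 0.384 (95% exact interval 0.25 to 0.577, covering counting error only), and the mean was 2.6-fold lower. The neighbouring paralog AKR1B15, named after its values were seen, had 10 to 14 reads per NC library and 2 to 4 per sh-RAD51C library; 0.901% of the 100-base windows of AKR1B10 occur in AKR1B15.

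AKR1A1 (ENSG00000117448.13, chr1:45550543-45570049, plus strand), a general aldehyde reductase found in most tissues, was at 35.1, 37.3 and 34.8 FPKM in NC 1, 2 and 3 and 31.9, 26.7 and 28.8 FPKM in sh-RAD51C 1, 2 and 3. The highest sh-RAD51C library lay below the lowest NC library, though by less than the spread within sh-RAD51C. The sh-RAD51C mean of 29.1 ± 2.65 FPKM was 81.5% of the NC mean of 35.7 ± 1.36 FPKM (SD, n = 3), with a log2(FPKM + 1) difference of -0.29 ± 0.058 (SE; 95% interval -0.42 to -0.16).

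**Figure D3:**
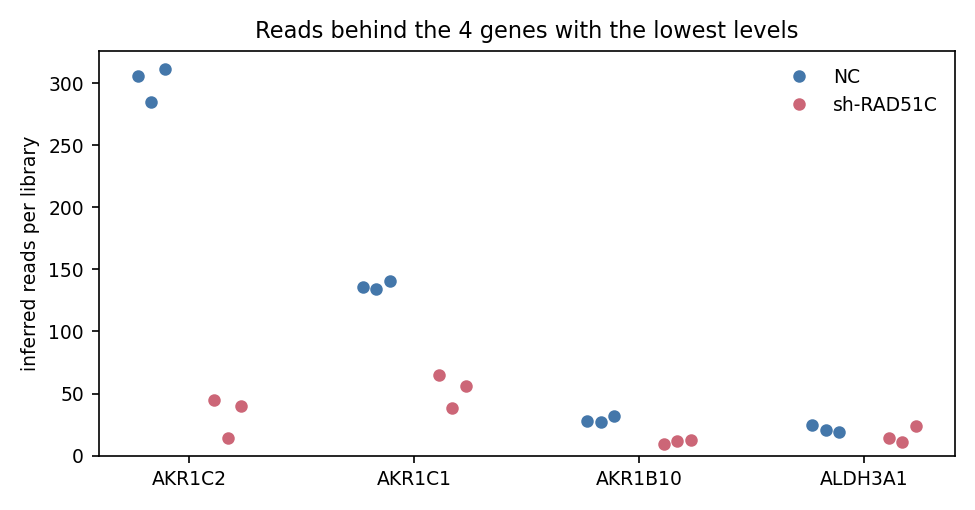
Inferred reads per library for the 4 genes with the lowest levels, NC in blue and sh-RAD51C in red. AKR1C2 has 285 to 311 reads in NC and 14 to 45 in sh-RAD51C, AKR1C1 and AKR1B10 also separate by group, and the ALDH3A1 points, 11 to 25 reads, overlap.

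Among the aldehyde dehydrogenases, ALDH1A3 (ENSG00000184254.16, chr15:100877714-100916626, plus strand), which makes retinoic acid from retinal, was one of the most abundant transcripts of the line. Its levels were 815, 814 and 809 FPKM in NC 1, 2 and 3, and 690, 695 and 727 FPKM in sh-RAD51C 1, 2 and 3. It ranked 56 to 60 of the 23024 genes in NC and 58 to 77 in sh-RAD51C, and took 0.283% of the reads of NC 1. The NC libraries differed by little, and all sh-RAD51C libraries lay below them. The mean went from 812 ± 3.11 to 704 ± 20.4 FPKM (SD, n = 3), 86.7% of NC, and the log2(FPKM + 1) difference was -0.21 ± 0.039 (SE; 95% interval -0.29 to -0.12). In GENCODE 29 its exons share 1648 bases with AC015712.5 on the same strand and AC015712.2 on the other, and 21% of its 100-base windows occur in AC015712.2; strand use in the counting was not given in the sources used here, so those reads cannot be told apart.

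ALDH3A1 and ALDH3A2 lie 60386 bases apart on chromosome 17. ALDH3A2 (ENSG00000072210.18, chr17:19648136-19677598, plus strand) is the fatty aldehyde dehydrogenase of the endoplasmic reticulum, whose loss causes Sjögren-Larsson syndrome. It was at 15.2, 15 and 15.3 FPKM in NC 1, 2 and 3 and 11.2, 10.5 and 10.7 FPKM in sh-RAD51C 1, 2 and 3. Both groups were tight and well apart, with 2233 to 2342 and 1578 to 1733 reads per library. The sh-RAD51C mean of 10.8 ± 0.371 FPKM was 71.1% of the NC mean of 15.2 ± 0.171 FPKM (SD, n = 3), with a log2(FPKM + 1) difference of -0.46 ± 0.044 (SE; 95% interval -0.55 to -0.36).

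ALDH3A1 (ENSG00000108602.17, chr17:19737984-19748943, minus strand), known for its abundance in the cornea and for clearing aldehydes of lipid peroxidation, was the lowest of the 10 in NC, and its sh-RAD51C libraries overlapped those of AKR1B10. It was at 0.174, 0.141 and 0.127 FPKM in NC 1, 2 and 3 and 0.0925, 0.0746 and 0.159 FPKM in sh-RAD51C 1, 2 and 3. The third sh-RAD51C library lay within the NC range, so the groups overlapped. With 65 reads in NC and 49 in sh-RAD51C, the ratio of 0.74 had a 95% exact interval of 0.5 to 1.09 (counting error only), and no difference was detectable at this depth.

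CBR1 (ENSG00000159228.12, chr21:36069941-36073166, plus strand) was higher in sh-RAD51C by a small margin. It was at 66.7, 68.6 and 72.7 FPKM in NC 1, 2 and 3 and 80.7, 73.5 and 75.7 FPKM in sh-RAD51C 1, 2 and 3. The highest NC library and the lowest sh-RAD51C library nearly met. The means of 69.3 ± 3.06 and 76.6 ± 3.68 FPKM (SD, n = 3) differ 1.11-fold, with a log2(FPKM + 1) difference of 0.14 ± 0.045 (SE; 95% interval 0.04 to 0.24). The call was lost without NC 1 (0.12), without NC 2 (0.14) and without sh-RAD51C 1 (0.11), and also without the level filter, without the variance trend and after quantile normalization (0.11). Its exons share 464 bases with AP000688.1 on the opposite strand, and 14.2% of its 100-base windows occur there.

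**Figure D4:**
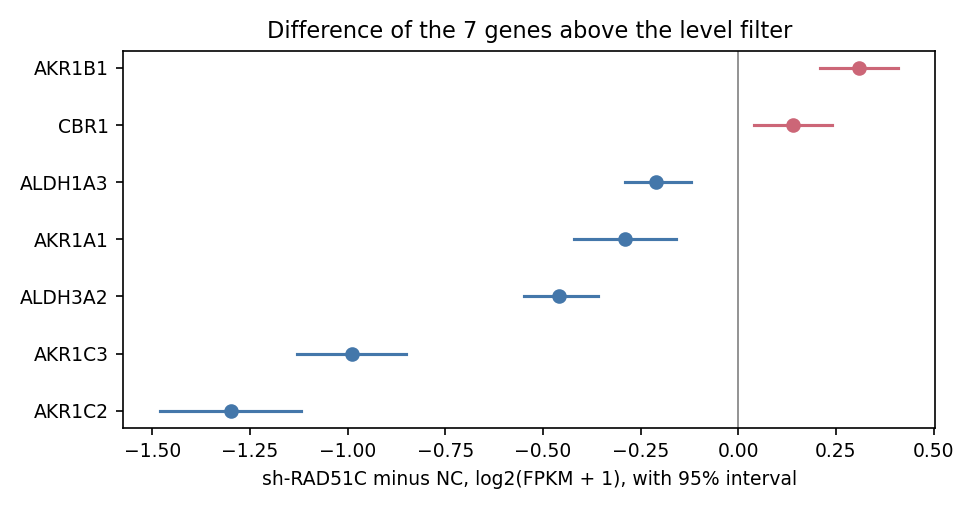
Difference between sh-RAD51C and NC on the log2(FPKM + 1) scale, with 95% intervals, for the 7 genes that passed the level filter; red is higher and blue lower in sh-RAD51C. The intervals of AKR1C2 and AKR1C3 lie at or below -0.85, those of ALDH3A2, AKR1A1 and ALDH1A3 lie between -0.55 and -0.12, and those of CBR1 and AKR1B1 lie above 0.

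CBR1 was also the gene whose promoter held the core of the antioxidant response element, the motif bound by NRF2 and searched as TGACNNNGC on both strands; its site is shown because no other of the 11 windows had the motif. It lies at chr21:36069857-36069881, with its first base 159 bases before the RefSeq start, reads on the opposite strand, and is in capitals:
CBR1 site 1: cgggttctGCAAAGTCAggctagct
The motif occurs in 10.9% of all 35116 windows. RefSeq windows were matched for 8 of the 10 genes and not for AKR1B10 and ALDH3A1. The AKR1C windows were poor in G and C, at 32% to 40.8% with 0 to 2 CpG, while the ALDH1A3 window was at 82.4% with 38 CpG, beside medians of 58% and 11 CpG over all windows.

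By the distance of their profiles over the 6 libraries (root mean square of log2(FPKM + 1) minus its NC mean), the genes nearest to AKR1C3 were S100A7A, an epidermal calcium-binding protein (distance 0.0515, from 2.28 to 0.637 FPKM), GSTA4, a glutathione transferase for lipid aldehydes (0.0662, from 3.15 to 1.17 FPKM), and GLUL, glutamine synthetase (0.0676, from 62.4 to 32.2 FPKM). S100A7A passed the level filter only through its NC libraries. The pseudocount of 1 shrinks the differences of low genes on this scale, so near profiles need not share a relative change. The means were 3.58-fold lower for S100A7A, 2.68-fold for GSTA4 and 1.94-fold for GLUL, beside 2.17-fold for AKR1C3. Within 0.1 of AKR1C3 lay 22 of the 11151 other genes. Within 0.1 of ALDH1A3 lay 2344 genes, the nearest being INTS8 (0.0121), MANBA (0.0122) and CHRNB1 (0.013). Fewer genes lie near a large difference than near a small one. These counts therefore largely restate the differences of -0.99 for AKR1C3 and -0.21 for ALDH1A3. For ALDH3A1, whose values on this scale are near 0, 3630 genes lay within 0.1, SNAPC1 (0.0134) and SS18L1 (0.0158) among the nearest.

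The other genes of the same families and pathways are given as counts of calls by limma at an adjusted p under 0.05, beside 49.4% over all genes tested and a median of -0.01. Of 11 other aldo-keto reductases, 7 had a row and only AKR7A2 passed the level filter; it was at 11 and 11.5 FPKM and was not called (limma adjusted p = 0.446). Of 16 other aldehyde dehydrogenases, 9 were tested, 5 fell and 3 rose, with a median of -0.18. ALDH7A1, an enzyme of lysine breakdown, fell from 21.8 ± 0.192 to 15.3 ± 0.45 FPKM (SD, n = 3; limma adjusted p = 3.01e-06). ALDH3B1 fell from 2.56 to 1.72 FPKM, ALDH6A1 of valine breakdown from 3.34 to 2.34 FPKM, and the mitochondrial ALDH1B1 rose from 18.1 to 22.3 FPKM. ALDH9A1 was at 31.3 and 29.9 FPKM and was not called. ALDH2 had 1 value above 0 among the 6 libraries, and no row was matched to ALDH1A1, so it could not be analysed.

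Of 19 carbonyl reductases and related short-chain dehydrogenases, 15 were tested, of which 8 fell, 0 rose and 7 were not called (53.3% called, median -0.17). DHRS13 fell from 14.1 ± 0.459 to 7.33 ± 0.351 FPKM and DHRS3, a retinal reductase, from 61.9 ± 1.87 to 38.8 ± 2.92 FPKM (SD, n = 3; limma adjusted p = 2e-07 and 1.82e-06). DECR1 of unsaturated fatty acid oxidation fell from 23.4 to 16 FPKM and DHRS1 from 11.8 to 8.42 FPKM. CBR3, the close relative of CBR1, was at 6.57 and 7.11 FPKM and CBR4 at 5.46 and 5.58 FPKM, neither called. Both alcohol dehydrogenases tested fell, ADH1C from 4.72 to 2.95 FPKM and ADH5, the formaldehyde-clearing enzyme, from 126 to 98.3 FPKM.

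In the retinoid pathway, in which ALDH1A3 makes the active acid, 10 of 15 tested genes fell, 3 rose and 2 were not called (86.7% called, median -0.30). The falls include DHRS3, which is also counted among the short-chain dehydrogenases above. CRABP2, which carries retinoic acid to its receptors, fell from 189 ± 6.08 to 104 ± 4.7 FPKM (SD, n = 3; limma adjusted p = 6.52e-08), and PLAAT4, a retinoid-induced gene, from 3.88 to 1.56 FPKM. RDH10, which makes retinal from retinol, fell from 9.47 to 6.27 FPKM; it was named after its values were seen. TGM2, tissue transglutaminase and a known retinoic acid target, rose from 157 ± 2.31 to 252 ± 6.71 FPKM (SD, n = 3, limma adjusted p = 8.7e-08). The other rises were RARA, from 4.93 to 5.79 FPKM, and RARB, from 1.48 to 2.17 FPKM, both named after their values were seen.

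All 8 tested genes of the prostaglandin pathway, to which AKR1C3, AKR1B1 and CBR1 contribute, were called, 5 lower and 3 higher, with a median of -0.15. PLA2G4A, which frees arachidonic acid, fell from 12 to 5.34 FPKM, and PTGS2, the inducible cyclooxygenase, from 94.7 ± 4.54 to 49.4 ± 6.14 FPKM (SD, n = 3; limma adjusted p = 2.01e-06). PTGER2, a receptor for prostaglandin E, rose from 2.35 to 5.37 FPKM, and PTGES3 from 79.5 to 94.9 FPKM.

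Of 10 tested steroid enzymes 4 fell, 1 rose and 5 were not called (median -0.09). The falls were those of HSD17B2, which inactivates estradiol and testosterone, from 14.1 to 7.7 FPKM, HSD17B7 from 8.16 to 5.43 FPKM, HSD17B11 from 15.2 to 11.9 FPKM, and HSD17B4 from 32.6 to 27.2 FPKM. In a list of the polyol pathway and of genes set beside it, 3 of 7 fell, 2 rose and 2 were not called (median -0.09). The calls were all of genes set beside the pathway (FN3K, FN3KRP, GLO1, HAGH and TKFC), so the count does not describe the pathway itself. DCXR, also counted among the short-chain dehydrogenases, was not called. SORD, which acts after AKR1B1 and turns sorbitol into fructose, was at 14.1 and 15.3 FPKM and was not called (limma adjusted p = 0.0542). FN3K, which removes sugar from glycated proteins, fell from 7.41 to 5.61 FPKM, TKFC from 3.19 to 2.46 FPKM and HAGH from 4.66 to 4.04 FPKM, while FN3KRP rose from 25.6 to 28.2 FPKM. The count of this list was 3 rather than 5 without NC 3 or without sh-RAD51C 2. The HAGH and FN3KRP calls were lost in 10 and 8 alternatives.

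Of 11 tested genes of fatty aldehyde and fatty alcohol metabolism, the setting of ALDH3A2, 3 rose, 1 fell and 7 were not called (36.4% called, median 0.04). Below the level filter, CYP4F11 went from 1.3 to 0.366 FPKM, CYP4F3 from 0.219 to 0.0709 FPKM and CYP4F12 from 0.0414 to 0.0035 FPKM. Their groups did not overlap, beside 21.6% of all genes listed that were lower without overlap, while CYP4F2 overlapped. These genes were named after their values were seen. Without the filter, the list's calls were 3 higher and 4 lower. SPHK1, sphingosine kinase, rose from 6.03 ± 0.379 to 13.7 ± 0.578 FPKM (SD, n = 3; limma adjusted p = 9.28e-08), FAR1, which makes fatty alcohols, from 25.4 to 30.8 FPKM, and AGPS of ether lipid synthesis from 12.3 to 14.1 FPKM, while ILVBL fell from 16.7 to 14 FPKM.

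Of 34 tested NRF2 regulators and targets, 11 rose, 7 fell and 16 were not called (52.9% called, median 0.01). NFE2L2, which encodes NRF2, fell from 32.8 to 25.6 FPKM, and its inhibitor KEAP1 was at 25.6 and 25.8 FPKM, not called; both, like NQO1, GCLM and SRXN1, were named after their values were seen. NQO1, a widely used NRF2 target, was at 50 ± 0.255 and 49.9 ± 3.33 FPKM (SD, n = 3; limma adjusted p = 0.943, 95% interval of the log2 difference -0.11 to 0.10). TXNRD1, thioredoxin reductase, rose from 43 ± 0.388 to 61.1 ± 1.05 FPKM, GCLM of glutathione synthesis from 3.29 to 4.65 FPKM and SRXN1 from 28 to 36.8 FPKM. PIR fell from 5.46 to 2.34 FPKM, GSTA4 from 3.15 to 1.17 FPKM and IDH1 from 39.8 to 26.5 FPKM.

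**Figure D5:**
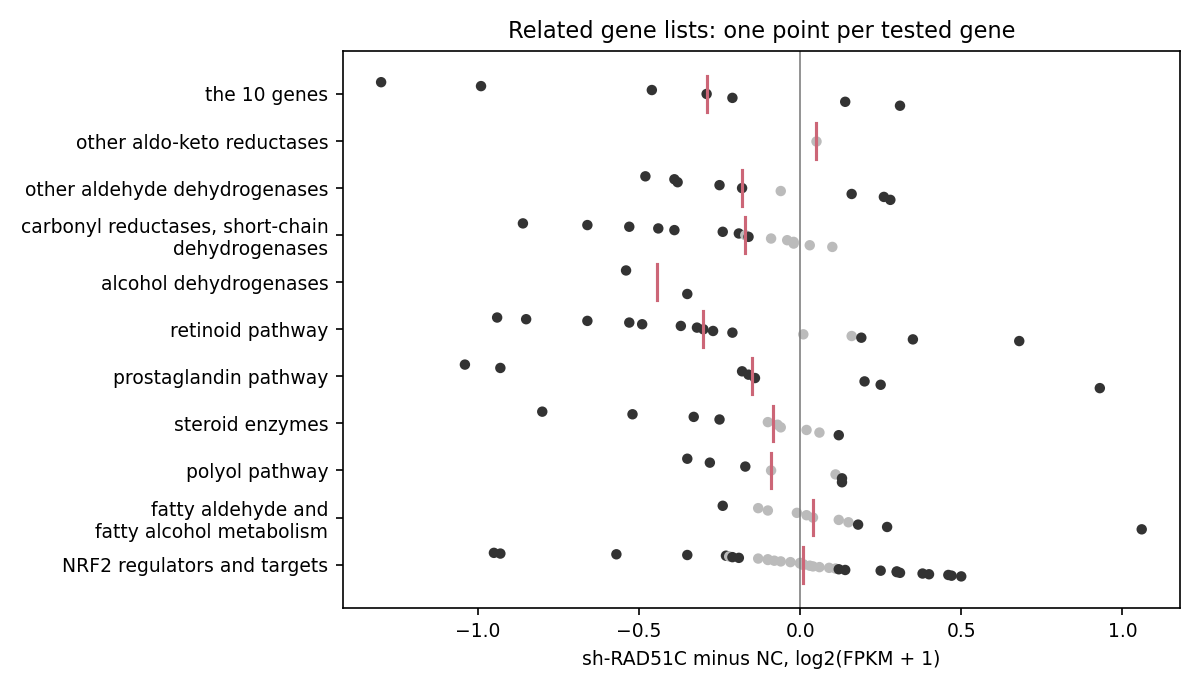
Difference between sh-RAD51C and NC on the log2(FPKM + 1) scale for each tested gene of the 10 genes and the 10 related lists; dark points were called by limma at an adjusted p under 0.05, grey points were not, and the red bar is the list's median. The retinoid median is at -0.30, the NRF2 median at 0.01, and the point farthest to the left is AKR1C2 at -1.30.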

How the data were processed

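The authors deposited FPKM values for 23024 gene symbols in 6 libraries; per the labels' protocols, RNA was extracted with TRIzol and libraries were made with the VAHTS Universal V6 kit. Per the submitters' processing notes, hg38 was the build and R 3.2.0 and DESeq2 were among the tools, with no role stated; aligner, counting program, strand setting and annotation were not given in the sources used here. The 11152 genes averaging 1 FPKM or more were fitted as log2(FPKM + 1) with limma 3.58.1 in R 4.3.3 (group as the only term, variance trend on), and p-values were adjusted over them by Benjamini-Hochberg. Whole reads were inferred from the FPKM steps for 23023 genes and used for depth and for voom alternatives. In simulated libraries of 11151 genes, the fit recovered 1 of 50 genes changed 1.1-fold and 38 of 50 changed 1.2-fold. It recovered 50 of 50 each at 1.5-fold and 2-fold, and called 15 of 10951 unchanged genes. The simulation set 1 spread between libraries for all genes and changed few genes, drawn from those with more reads. In the data 49.4% were called, so these figures do not give the recovery in the data or for genes with few reads. Between libraries of a group, chi-square over degrees of freedom was 3.41 to 10.94, above sampling noise.

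The genes and lists were chosen with earlier results of these data known. Named are the 10 genes, RAD51C, in each list the 4 called genes with the largest change and at least 2 FPKM in the higher group, and the 3 nearest profiles of AKR1C3, ALDH1A3 and ALDH3A1; any other gene was named after its values were seen, and 1 of the nearest profiles is not reported here. List symbols were matched directly, or as a synonym for 1 (ILVBL). Positions and transcripts are those of GENCODE 29 (GRCh38), and promoter sequences those of RefSeq (GRCh38.p14).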

Additional observations from a re-analysis of the deposited data

How the results depend on the processing

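Alternatives covered the pseudocount, the level filter, 2 rescalings, the variance trend, a replicate block, voom on inferred reads and the omission of each library; a voom fit on all genes with at least 10 reads was chosen after seeing the data. Genes called ranged from 3947 (mean of at least 5 FPKM) to 6510 (the added voom fit), and from 4522 to 5464 without 1 library. Of the 10 genes, 6 to 9 were called, 6 or 7 without 1 library; without the filter 8 were called, with 7 lower and 1 higher. The 7 tested genes kept their direction in every alternative that held them. The added voom fit gave -1.42 for AKR1C1 and -1.36 for AKR1B10, both called, and -0.48 for ALDH3A1, not called. RAD51C ranged from -2.12 to -1.78. Of the 110 list genes tested, 70 were called, 55 to 78 over the alternatives and 59 to 70 without 1 library; for 33 named list genes, 501 of 519 alternatives kept the call, 18 lost it and 0 reversed. With a mean of at least 5 FPKM, 5 other aldehyde dehydrogenases, 1 alcohol dehydrogenase and 3 genes of the polyol list were called. Without the filter or in the added fit, 2 other aldo-keto reductases (0 higher, 2 lower) and 7 fatty aldehyde genes (3 higher, 4 lower) were. The causes were not tested.

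Deviations of same-numbered libraries from their group means correlated at 0.19, 0.03 and 0.09 for numbers 1, 2 and 3. Libraries of unlike number correlated at -0.17 to 0.11. The highest value was that of number 1, but NC 3 was nearest to sh-RAD51C 2 (0.11). These values do not settle whether the numbers pair libraries, and the main fit did not pair them. With the replicate block, 5569 genes, 7 of the 10 genes and 70 list genes were called. Depth limits AKR1B10 and ALDH3A1, with at most 32 and 25 reads in a library.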

Other observations

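Within 500 kb of the AKR1C genes, NET1 was the only other gene that passed the level filter. It lies 305 kb from AKR1C3 and 429 kb from AKR1C1. NET1 fell from 57 to 51.6 FPKM (limma adjusted p = 0.00633). The non-coding gene MANCR, 285 kb from AKR1C1 and named after its values were seen, was higher in sh-RAD51C: it was at 0.139, 0.0573 and 0.153 FPKM in NC 1, 2 and 3 and 0.867, 1.64 and 0.906 FPKM in sh-RAD51C 1, 2 and 3. All sh-RAD51C libraries were above all NC libraries, and the second, the lowest for AKR1C1 and AKR1C2, was the highest for MANCR. The mean was 9.78-fold higher, on 18 reads in NC and 179 in sh-RAD51C; the mean over all libraries was below the level filter and the difference was not tested. Also below the filter and named after their values were seen, CALML5 and CALML3-AS1, 391 kb and 407 kb from AKR1C3, were lower in sh-RAD51C with no overlap. CALML5 went from 0.528 ± 0.237 to 0.122 ± 0.0826 FPKM and CALML3-AS1 from 0.701 ± 0.0228 to 0.244 ± 0.0921 FPKM (SD, n = 3). Few reads lay behind CALML5: 25, 11 and 15 in NC 1, 2 and 3 and 2, 7 and 3 in sh-RAD51C 1, 2 and 3. The neighbours TUBAL3, LINC02561 and CALML3, also below the filter, overlapped between groups. Among all genes listed, 21.6% were lower and 16.1% higher without overlap.

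The 4 uroplakins were near 0, and of the other 12 urothelial and epithelial markers 6 rose, 5 fell and FOXA1, at 9.52 and 9.08 FPKM, was not called by limma. KRT5 fell from 686 to 301 FPKM, KRT19 from 1074 to 682 FPKM, KLF5 from 151 to 73.3 FPKM, TP63 from 28.8 to 17.8 FPKM and CDH1 from 35.5 to 32.7 FPKM. KRT7 rose from 407 to 685 FPKM, KRT18 from 265 to 433 FPKM, KRT8 from 367 to 463 FPKM, EPCAM from 76.5 to 109 FPKM, PPARG from 11 to 14.3 FPKM and GATA3 from 4.62 to 7.51 FPKM. These were named after their values were seen, and their part in the differences of the aldehyde and ketone enzymes was not tested.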
